A study of Mus musculus with 9 samples.

Results

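The 10 surface ligands through which other cells are known to address receptors of lymphocytes and myeloid cells were followed in mouse keratinocytes, which build the epidermis. They were chosen by gene symbol, as 10 of the 24532 genes in the count table, and comprise *Vsir*, *Nectin2*, *Pvr*, *Cd274*, *Cd276*, *H60c*, *Icosl*, *Cd200*, *Cd47* and *Raet1e*. RNA of sorted C57BL/6 skin cells had been sequenced on postnatal day 1, day 7 and day 14, in 3 libraries at each age and 9 in all. The labels name no treatment, and age is the only factor they give. The cells were sorted as viable and negative for the leukocyte marker CD45.2, without a positive keratinocyte marker, so the gate could also hold other CD45.2-negative skin cells. No label ties a library to an animal, so the p-values measure only the spread between libraries, which may be technical.

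Contact between epithelial cells and lymphocytes is set by pairs of ligands and receptors that either activate or restrain the lymphocyte. The B7 family supplies co-stimulatory and inhibitory ligands of T cells, the nectin family supplies ligands shared by an activating receptor (DNAM1, encoded by *Cd226*) and inhibitory receptors (such as TIGIT), and the NKG2D ligands are class I-like molecules that engage an activating receptor of natural killer cells and T cells. Mouse epidermis is known for a resident population of gamma delta T cells that carry NKG2D. CD200 and CD47 restrain myeloid cells through the receptors CD200R and SIRPA.

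The libraries held between 50670191 and 62970768 counts. Keratin genes were abundant, with *Krt5* at 21979.9 ± 911 CPM (counts scaled to library size, with TMM factors) at day 1, 22464 ± 588 at day 7 and 15524 ± 901 at day 14 (SD, n = 3). The pan-leukocyte gene *Ptprc* had 0 to 9 counts in any library. Sex-linked transcripts differed between the ages: *Xist* was at 0 counts in all day 7 libraries and *Ddx3y* at 0 in all day 14 libraries, and day 1 libraries held both. The column headers of day 7 also have another style than those of the other days. Age, the sex-linked difference and whatever the header style marks therefore cannot be told apart in comparisons with day 7, nor age and the sex-linked difference between days 14 and 1. Headers of the day 1 libraries read D0, and these were taken as day 1 because the other days have headers of their own. Libraries are named by their header numbers, which run from 1 to 3 for day 7 and from 4 to 6 for the other days.

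The ligands did not move as one group. *Cd274*, *Vsir* and *Nectin2* rose in both weeks, *Pvr* rose in the second week, *Cd47* rose in the first, *Cd276* was highest at day 7, *Cd200* was lowest at day 7, and *H60c* fell in the second week. Day 14 libraries thus had 14.9-fold more *Vsir*, 5.77-fold more *Cd274*, 4.06-fold more *Nectin2* and 3.33-fold more *Pvr* than day 1 libraries, with 0.762 times the *H60c*. *Raet1e* had 0 counts in all 9 libraries. The other 9 ligands passed the low-count filter, which 14507 genes passed, and were tested with edgeR. The day 7 against day 1 comparison called 5 of the 9 higher and 1 lower, where 25.5% and 24% of all tested genes were called in those directions. Day 14 against day 7 gave 6 higher and 2 lower (32.5% and 35.1% of all genes), and day 14 against day 1 gave 6 higher and 1 lower (35.5% and 38.4%). In either direction, 49.4%, 67.6% and 73.9% of all genes were called in these 3 comparisons, so a call by itself does not set a ligand apart. The test of the second step minus the first called 3 ligands higher and 4 lower, where 24.2% and 27.6% of all genes were called, 51.8% in either direction. The median log2 fold change of the 9 ligands was 0.46, 0.57 and 0.90, beside -0.001, -0.035 and -0.046 over all genes. The ligands were chosen with earlier results of these data known, so shares and medians set beside those of all genes only describe them.

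Size separated the ligands more than calls did. Day 14 libraries had more than 2-fold higher levels than day 1 libraries for 4 of the 9 ligands, which held for 14.6% of all genes, and none of the 9 was more than 2-fold lower (14.3% of all genes). Only 89 of the 14507 tested genes had a larger log2 fold change than *Vsir* for day 7 against day 1. The first week had 1 ligand called and more than 2-fold higher (*Vsir*; 4.76% of all genes, with 8.29% lower), and the second had 4 (*Nectin2*, *Pvr*, *Cd274* and *Cd200*; 11.1% of all genes, with 7.75% lower). For the second week, 793 genes exceeded *Cd274*, 924 exceeded *Nectin2* and 1012 exceeded *Pvr*. Against a minimum fold of 1.5, *Nectin2* and *Cd274* did not pass for the first week, and *Vsir*, *Cd276*, *H60c* and *Icosl* did not for the second. Comparisons that share the day 7 libraries are not independent of each other.

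**Figure D1:**
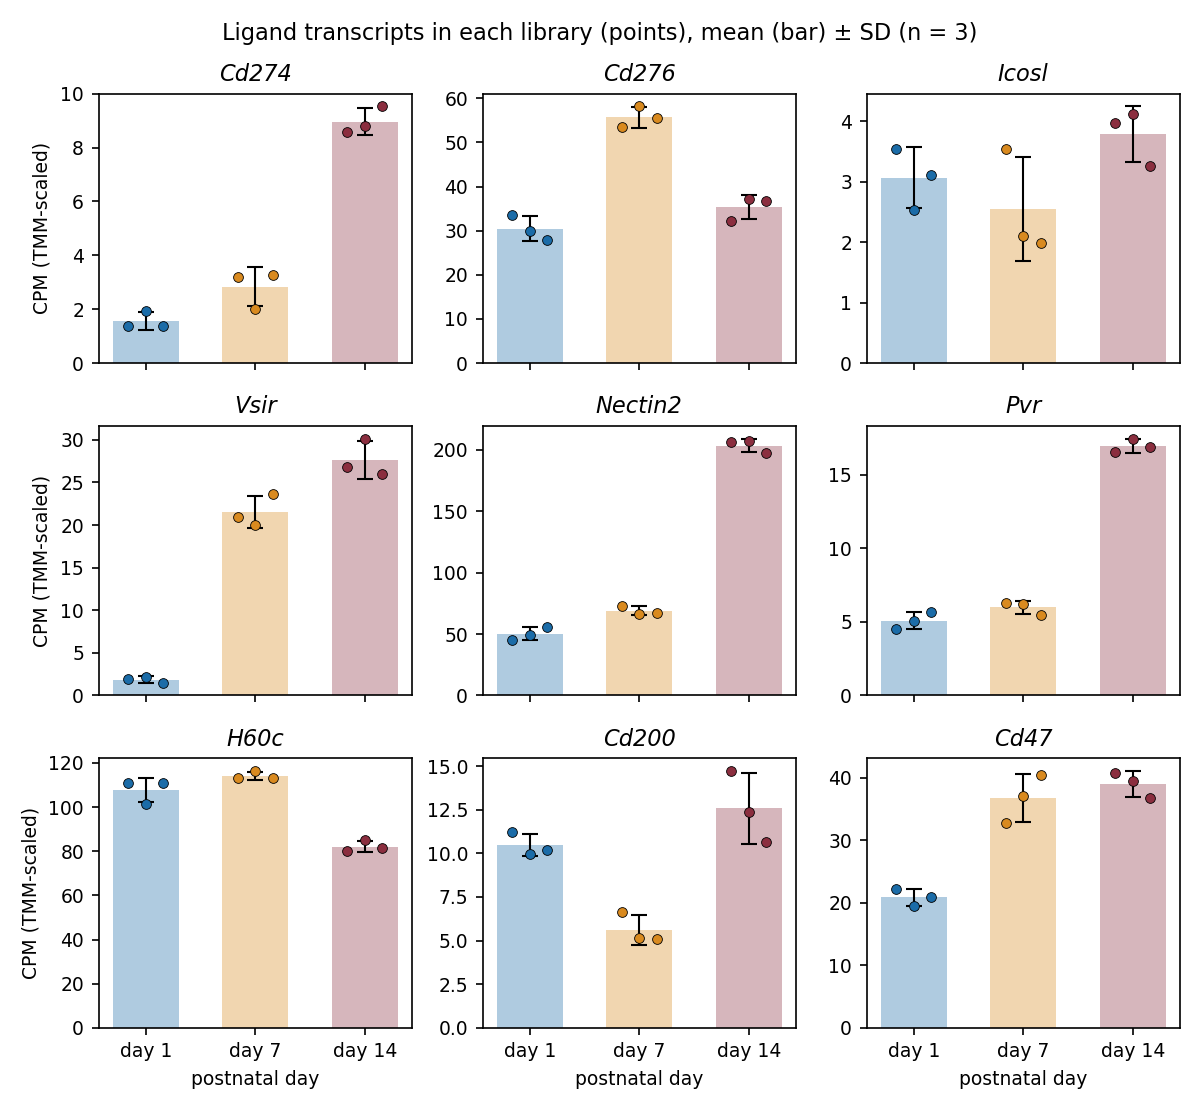
Level of each of 9 ligands in TMM-scaled CPM (vertical axes, each starting at 0) at postnatal days 1, 7 and 14. Points are the 3 libraries of a day, bars their mean and whiskers the SD. Vsir lies between 1.43 and 2.20 CPM at day 1 and above 19 CPM in every later library, and Cd276 and Cd200 have their extreme at day 7.

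**Figure D2:**
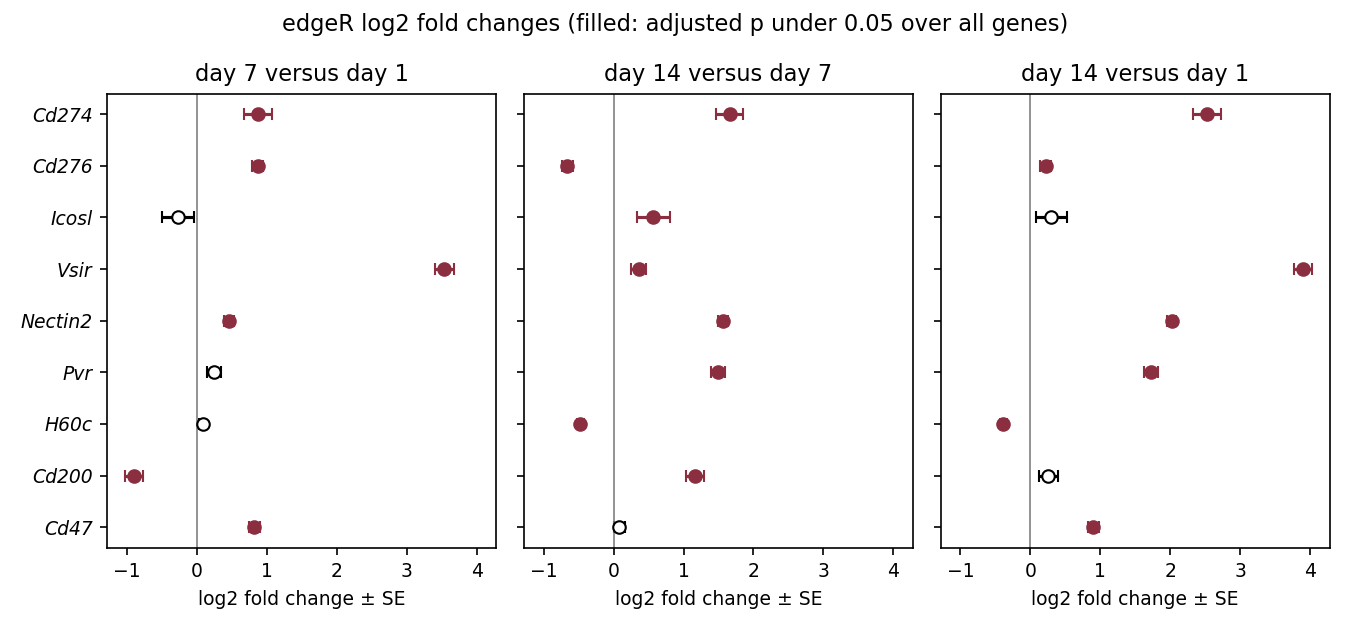
Fitted log2 fold changes (horizontal axis) with standard errors for the same ligands in the 3 pairs of days, where positive values mean higher at the later day. Filled points passed an adjusted p of 0.05 over all 14507 tested genes. Vsir moved mainly in the first week, and Cd274, Nectin2, Pvr and Cd200 rose most in the second.

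The regions before the transcription starts of these genes were taken from RefSeq (GRCm38.p6, the assembly of mm10), which gave a window for 9 of the 10 ligands and none for *Pvr*. Gene positions given below are RefSeq spans of the whole gene. The windows of *Cd274*, *Cd47*, *H60c*, *Cd200* and *Raet1e* belong to starts inside that span, not at its outer end. The 250 bases upstream of the start are shown for *Vsir*, which rose most in the first week, for *Cd274* and *Nectin2*, which rose most in the second, and for *H60c*, which was called lower at day 14 than at day 1, each 5′ to 3′ on the coding strand. Capitals mark matches to a loose NF-kB pattern (GGG, any 5 bases, then CC) read on either strand, and no other searched motif had a match.
*Vsir* (chr10:60346601-60346850, plus strand): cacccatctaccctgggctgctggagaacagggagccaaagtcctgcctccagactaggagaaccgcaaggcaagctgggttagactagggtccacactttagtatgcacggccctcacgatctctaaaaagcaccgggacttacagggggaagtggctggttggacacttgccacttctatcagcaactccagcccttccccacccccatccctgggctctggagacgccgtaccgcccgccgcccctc
*Nectin2* (chr7:19749574-19749823, minus strand): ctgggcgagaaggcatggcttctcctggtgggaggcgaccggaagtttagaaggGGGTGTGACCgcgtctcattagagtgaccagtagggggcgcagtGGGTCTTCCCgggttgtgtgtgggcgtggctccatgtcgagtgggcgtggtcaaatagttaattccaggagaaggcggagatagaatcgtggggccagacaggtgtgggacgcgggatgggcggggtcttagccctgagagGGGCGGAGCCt
*Cd274* (chr19:29367188-29367437, plus strand): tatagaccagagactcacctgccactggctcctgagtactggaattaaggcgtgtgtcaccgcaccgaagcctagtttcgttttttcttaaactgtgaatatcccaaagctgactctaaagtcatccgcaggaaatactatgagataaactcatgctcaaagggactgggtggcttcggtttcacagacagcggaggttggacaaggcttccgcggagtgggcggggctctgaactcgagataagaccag
*H60c* (chr10:3267772-3268021, minus strand): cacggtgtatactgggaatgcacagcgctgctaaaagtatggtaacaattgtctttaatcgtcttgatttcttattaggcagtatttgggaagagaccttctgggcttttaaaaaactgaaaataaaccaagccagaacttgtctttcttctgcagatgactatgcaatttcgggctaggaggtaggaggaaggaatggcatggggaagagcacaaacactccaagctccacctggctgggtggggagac

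Within the full window, which runs from 250 bases before to 50 after the start, the interferon response element core (GAAA, any 2 bases, then GAAA), the STAT pattern TTCNNNGAA, the AP-1 pattern TGANTCA and the TATA box TATAAA were absent from all windows of the 9 ligands. These letters were present in 3.44%, 8.3%, 7.81% and 13.6% of the 32851 windows of the whole table, counting both strands. The loose NF-kB pattern was in windows of *Nectin2*, *Cd276*, *Icosl* and *Raet1e*, and in 50.8% of all windows. The *Nectin2* window held 4 matches, the most upstream beginning 196 bases before the start. The *H60c* window had 47.3% GC and 5 CpG dinucleotides, and the *Vsir*, *Nectin2* and *Cd274* windows had 63.7%, 62.7% and 52.7% GC and 15, 20 and 15 CpG, against medians of 52.7% and 7 over all windows. A match or its absence describes these letters only.

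Among the B7 family, *Cd274* encodes PD-L1, the ligand of the inhibitory receptor PD-1 (chromosome 19, 29362107 to 29388095). Its level was 1.36, 1.93 and 1.37 CPM at day 1, 3.21, 2.01 and 3.29 CPM at day 7, and 8.59, 8.79 and 9.53 CPM at day 14. No library of a later day reached down to the range of an earlier one, although day 7 library 2 came close to the highest day 1 library. The log2 fold change was 0.87 ± 0.20 (SE) for day 7 against day 1 (edgeR quasi-likelihood test with Benjamini-Hochberg adjustment, adjusted p = 0.00381) and 1.66 ± 0.19 for day 14 against day 7 (edgeR adjusted p = 1e-05). The test of the difference between the steps did not pass (0.80 ± 0.35, edgeR adjusted p = 0.0718). Antisense genes annotated over exons of *Cd274*, *Nectin2* and *Cd276* are not among the rows used here, and whether counting used strand is not given in the sources used here, so reads of these partners cannot be told apart. At most 120 counts per library stood behind the day 1 values and at least 430 behind those of day 14.

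*Vsir* encodes VISTA, another inhibitory member of the B7 family (chromosome 10, 60346851 to 60430294). It was at 1.91, 2.20 and 1.43 CPM at day 1, at 20.9, 20.0 and 23.6 CPM at day 7, and at 26.8, 30.1 and 25.9 CPM at day 14. The days did not overlap, and the gap between days 1 and 7 was far wider than that between days 7 and 14. The log2 fold change was 3.54 ± 0.13 in the first week (edgeR adjusted p = 3.37e-09) and 0.36 ± 0.11 in the second (edgeR adjusted p = 0.0127), and the second step minus the first was -3.18 ± 0.20 (edgeR adjusted p = 3.66e-07). The second-week call was lost with library totals alone as scaling (log2 fold change 0.19, edgeR adjusted p = 0.168), without day 7 library 2 (0.30, edgeR adjusted p = 0.0587) and without day 14 library 5 (0.29, edgeR adjusted p = 0.0656). *Cdh23*, which lies over *Vsir* on the opposite strand without shared exons, had at most 7 counts in a library, against 88 counts or more of *Vsir*.

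*Cd276* encodes B7-H3, for which both stimulating and inhibiting effects on T cells have been described (chromosome 9, 58524300 to 58555033). It was at 33.5, 30.0 and 27.8 CPM at day 1, at 53.4, 58.2 and 55.6 CPM at day 7, and at 32.1, 37.2 and 36.7 CPM at day 14. Day 7 libraries stood above all others, and days 1 and 14 overlapped. The log2 fold change was 0.87 ± 0.08 in the first week (edgeR adjusted p = 1.6e-06) and -0.66 ± 0.08 in the second (edgeR adjusted p = 8.46e-06). Such a peak, with a call in each direction, was found for 7.24% of all tested genes. Day 14 against day 1 passed the test at 0.22 ± 0.08 (edgeR adjusted p = 0.0217), but this sign turned to -0.06 with library totals alone, and the call was lost without any one of day 1 libraries 5 and 6 and day 14 libraries 5 and 6 (edgeR adjusted p from 0.0694 to 0.118).

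*Icosl*, the ligand of the co-stimulatory receptor ICOS (chromosome 10, 78069368 to 78079525), showed the least evidence of change. It was at 3.55, 2.54 and 3.11 CPM at day 1, at 3.54, 2.10 and 1.99 CPM at day 7, and at 3.97, 4.13 and 3.26 CPM at day 14. All days overlapped, and day 7 library 1 stood apart from the other day 7 libraries. The test over the 3 days did not pass (edgeR adjusted p = 0.0907, where 82.1% of all genes passed). The second week gave 0.57 ± 0.23 (edgeR adjusted p = 0.0412), a call lost under 8 of 17 alternatives, with edgeR adjusted p from 0.00243 to 0.721 and log2 fold changes from 0.40 to 0.88. Without day 7 library 1 the first week passed as a fall of 0.58 on the log2 scale (value -0.58, edgeR adjusted p = 0.0336).

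Both nectin family ligands, *Nectin2* and *Pvr*, rose in the second week. *Nectin2* encodes CD112, a cell adhesion molecule of epithelial junctions that is also bound by DNAM1 and TIGIT (chromosome 7, 19716644 to 19749573). It was at 45.5, 49.3 and 55.8 CPM at day 1, at 73.2, 66.3 and 67.5 CPM at day 7, and at 206, 207 and 197 CPM at day 14. No 2 days overlapped, and the gap was widest between days 7 and 14. The fitted log2 change was 0.46 ± 0.07 in the first week (edgeR adjusted p = 0.000137) and 1.56 ± 0.07 in the second (edgeR adjusted p = 2.41e-09), and the second step was larger by 1.10 ± 0.12 (edgeR adjusted p = 1.71e-05).

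*Pvr* encodes CD155, the higher-affinity partner of the same receptors (chromosome 7, 19903578 to 19921143). It was at 4.54, 5.08 and 5.66 CPM at day 1, at 6.32, 6.21 and 5.49 CPM at day 7, and at 16.5, 17.5 and 16.9 CPM at day 14. Days 1 and 7 overlapped, and day 14 stood apart from both. The first week did not pass the test (0.24 ± 0.10, edgeR adjusted p = 0.0654), although it did without day 1 library 6 (0.32, edgeR adjusted p = 0.0272) or day 7 library 3 (0.30, edgeR adjusted p = 0.0457). The second week gave 1.5 ± 0.10 (edgeR adjusted p = 6.91e-08), and the difference of the steps was 1.26 ± 0.17 (edgeR adjusted p = 0.000106).

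The pair lie 154 kb apart on chromosome 7, with 6 protein-coding genes between them. Their ratio within a library needs no scaling between libraries. There were 10, 9.70 and 9.85 counts of *Nectin2* for each count of *Pvr* at day 1, 11.6, 10.7 and 12.3 at day 7, and 12.5, 11.9 and 11.7 at day 14. The ratio was therefore lower in every day 1 library than in any later one, and days 7 and 14 overlapped.

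Of the NKG2D ligand genes in the count table, *H60c* carried nearly all counts. *H60a*, another gene of this kind, has no row there. H60C is a mouse ligand of NKG2D that is known for its expression in skin (chromosome 10, 3256202 to 3268091). It was at 111, 102 and 111 CPM at day 1, at 113, 116 and 113 CPM at day 7, and at 80.1, 84.9 and 81.4 CPM at day 14. Every day 14 library lay below every earlier one. The first week did not pass the test (0.08 ± 0.05, edgeR adjusted p = 0.151), and the second week gave -0.48 ± 0.05 (edgeR adjusted p = 1.94e-06), with a difference of the steps of -0.56 ± 0.08 (edgeR adjusted p = 0.000113). Against a minimum fold of 1.5 the fall no longer passed (edgeR adjusted p = 1). In a bulk sample, fewer cells of a type and less RNA per cell cannot be told apart, here and for the other ligands.

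*Raet1e* encodes a RAE-1 ligand of NKG2D (chromosome 10, 22158542 to 22189697). With 0 counts in all libraries, up to 3 counts per library remain possible, which is 0.0444 to 0.0599 CPM and covers counting error only. The near-identical *Raet1a*, *Raet1b*, *Raet1c* and *Raet1d* were also listed at 0 counts in every library, and *Raet1e* shares 363 exon bases with *Raet1d* and 133 with *H60b* in GENCODE M21. Whether reads of these copies were discarded in counting was not tested. *H60b* had 8 counts in 1 library and 0 in the others. *Ulbp1*, which encodes the NKG2D ligand MULT1, was measurable at 48 to 125 counts per library, and rose in the second week to 2.33 ± 0.164 CPM at day 14, against 0.948 ± 0.268 CPM at day 7 (log2 fold change 1.30 ± 0.27, edgeR adjusted p = 0.00106).

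The ligands of myeloid receptors went different ways in the first week. *Cd47*, the signal through SIRPA that restrains engulfment by macrophages (chromosome 16, 49851328 to 49912503), was at 22.2, 19.5 and 20.9 CPM at day 1, at 32.8, 37.1 and 40.5 CPM at day 7, and at 40.7, 39.5 and 36.7 CPM at day 14. Day 1 stood below all later libraries, and days 7 and 14 overlapped. In log2 terms the change was 0.82 ± 0.08 in the first week (edgeR adjusted p = 4.77e-06) and 0.08 ± 0.08 in the second, which did not pass (edgeR adjusted p = 0.371). The second step minus the first was -0.73 ± 0.14 (edgeR adjusted p = 0.000803).

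*Cd200* is also known as a surface marker of the hair follicle bulge (chromosome 16, 45382111 to 45409060). It was at 11.2, 9.99 and 10.2 CPM at day 1, at 6.62, 5.14 and 5.09 CPM at day 7, and at 14.7, 12.4 and 10.6 CPM at day 14. Day 7 libraries lay below all others, while days 1 and 14 overlapped. Its fitted log2 change was -0.90 ± 0.13 in the first week (edgeR adjusted p = 0.000146) and 1.16 ± 0.13 in the second (edgeR adjusted p = 8.98e-06), a dip with calls in both directions that 6.23% of all genes shared. Day 14 against day 1 did not pass (0.26 ± 0.13, edgeR adjusted p = 0.0849), but did without day 14 library 6 (0.36, edgeR adjusted p = 0.0269). The ratio of *Cd47* to *Cd200* counts in a library was 1.98, 1.95 and 2.05 at day 1, 4.96, 7.23 and 7.96 at day 7, and 2.77, 3.19 and 3.44 at day 14.

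To rank the ligands within a day, CPM was divided by the length of the merged exons of each gene in GENCODE M21, which gives CPM per kb. This length counts every annotated transcript, so the order depends on it. At day 1, *H60c* led with 38.3 ± 1.93 CPM per kb, followed by *Nectin2* at 14.4 ± 1.49 and *Cd276* at 8.32 ± 0.787 CPM per kb (SD, n = 3), without overlap. *Cd47* and *Cd200* came next with overlapping ranges, at 3.33 ± 0.216 and 3.16 ± 0.198 CPM per kb. *Pvr* and *Icosl* overlapped below them at 0.832 ± 0.0917 and 0.664 ± 0.109 CPM per kb. The lowest detected pair, *Cd274* and *Vsir*, also overlapped, at 0.429 ± 0.0903 and 0.369 ± 0.0777 CPM per kb.

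At day 7, the leading ligands kept their places, with *H60c* at 40.6 ± 0.631, *Nectin2* at 19.8 ± 1.05, *Cd276* at 15.2 ± 0.645 and *Cd47* at 5.87 ± 0.613 CPM per kb. *Vsir* now stood in the fifth place at 4.29 ± 0.375 CPM per kb, apart from its neighbours on either side. *Cd200* followed at 1.69 ± 0.262 CPM per kb, and below it *Pvr* (0.981 ± 0.0732), *Cd274* (0.782 ± 0.198) and *Icosl* (0.551 ± 0.186 CPM per kb) each overlapped the next.

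By day 14 the top of this order had changed. *Nectin2* led at 58.2 ± 1.59 CPM per kb, ahead of *H60c* at 29.2 ± 0.877 and *Cd276* at 9.66 ± 0.761 CPM per kb, without overlap. *Cd47* and *Vsir* overlapped at 6.21 ± 0.332 and 5.51 ± 0.442 CPM per kb. *Cd200* (3.79 ± 0.615), *Pvr* (2.77 ± 0.0761), *Cd274* (2.48 ± 0.138) and *Icosl* (0.820 ± 0.0999 CPM per kb) followed without overlap. Of the summed CPM per kb of the ligands, *H60c* made up 54.9% at day 1, 45.2% at day 7 and 24.6% at day 14, while *Nectin2* made up 20.6%, 22% and 49.1%.

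**Figure D3:**
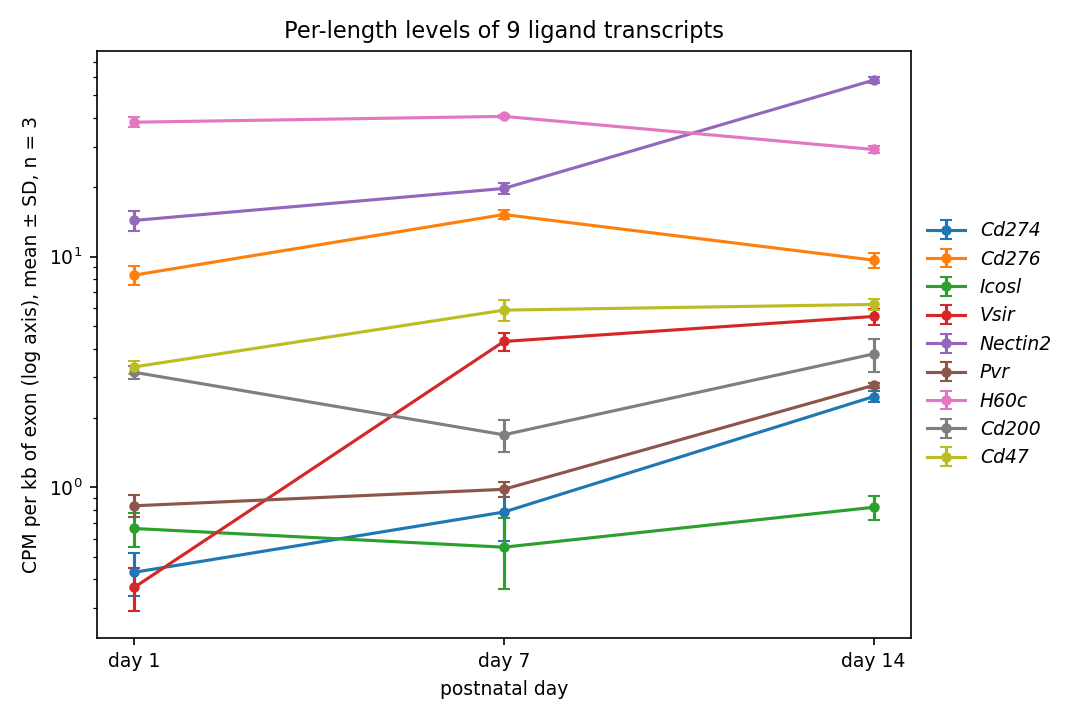
Per-length level of 9 ligands at the 3 ages, in CPM per kb of merged exons on a log axis, as mean ± SD of 3 libraries, with lines joining the days. Nectin2 and H60c exchange the first place between days 7 and 14, and Vsir stands lowest among detected ligands at day 1 and in the fifth place at day 7.

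Other ligands of the same receptor families were counted from lists chosen by function, also with earlier results of these data known. Of the other nectin and nectin-like genes, all 4 were tested, and 1 rose and 2 fell in the first week, with 2 up and 1 down in the second. *Nectin1*, a junctional nectin, reached 395 ± 14.5 CPM at day 14, against 115 ± 9.24 CPM at day 1 (log2 fold change 1.78 ± 0.06, edgeR adjusted p = 7.69e-11). *Nectin4* reached 140 ± 16.1 CPM at day 14, against 42.6 ± 6.19 CPM at day 1 (1.72 ± 0.12, edgeR adjusted p = 8.27e-07). *Nectin3* fell to 2.12 ± 0.207 CPM at day 14, against 13.1 ± 1.35 CPM at day 1 (-2.63 ± 0.13, edgeR adjusted p = 1.73e-09). The second-week rise of *Nectin2* was shared by *Nectin1* (1.06 ± 0.06, edgeR adjusted p = 1.43e-08) and *Nectin4* (1.57 ± 0.12, edgeR adjusted p = 2.56e-06). In that week *Nectin3* fell (-0.58 ± 0.13, edgeR adjusted p = 0.00155) and *Cadm1* was not called (-0.07 ± 0.11, edgeR adjusted p = 0.63). *Nectin1* had also risen in the first week (0.72 ± 0.06, edgeR adjusted p = 9.27e-07).

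Of 10 TNF family ligands and partners, 4 were tested, of which 3 rose and none fell in each week. The 3 were not the same: *Tnfsf18* and *Tnfsf10* rose in both weeks, *Tnfsf15* only in the first and *Tnfsf9* only in the second. *Tnfsf15* averaged 1.87, 4.40 and 2.93 CPM at days 1, 7 and 14. *Tnfsf9*, the 4-1BB ligand, was at 10.4 ± 0.975 CPM at day 14, against 3.40 ± 0.968 CPM at day 1 (1.61 ± 0.31, edgeR adjusted p = 0.00123). *Tnfsf18*, the ligand of GITR, was at 2.53 ± 0.24 CPM at day 14, against 0.348 ± 0.123 CPM at day 1 (2.85 ± 0.28, edgeR adjusted p = 1.17e-06). *Tnfsf10*, which encodes TRAIL, was at 1.37 ± 0.176 CPM at day 14, against 0.0952 ± 0.0348 CPM at day 1. These were low levels, and *Cd70* and *Tnfsf14* had 0 counts throughout.

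Of the other B7 ligands, *Cd86* had at most 10 counts and *Pdcd1lg2*, which encodes the second PD-1 ligand PD-L2, at most 3 counts in a library, so neither was tested. *Cd80*, named after its values were seen, fell to 0.210 ± 0.0856 CPM at day 7, against 0.849 ± 0.146 CPM at day 1 (edgeR adjusted p = 0.0419). Among the remaining 10 ligands 8 were tested, and 4 rose and 1 fell in the first week, with 4 up and 3 down in the second. *Thbs1*, a secreted ligand of CD47, reached 2135 ± 424 CPM at day 14, against 398 ± 71.9 CPM at day 1 (2.42 ± 0.19, edgeR adjusted p = 1.41e-05). The C-type lectin gene *Clec2d* was highest at day 7, with 7.02 ± 0.91, 25.4 ± 4.15 and 16.4 ± 3.57 CPM at days 1, 7 and 14. Its log2 fold change was 1.85 ± 0.18 in the first week (edgeR adjusted p = 2.33e-05) and -0.63 ± 0.17 in the second (edgeR adjusted p = 0.00857). *Cd24a* fell to 170 ± 13.8 CPM at day 14, against 342 ± 23.5 CPM at day 1.

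**Figure D4:**
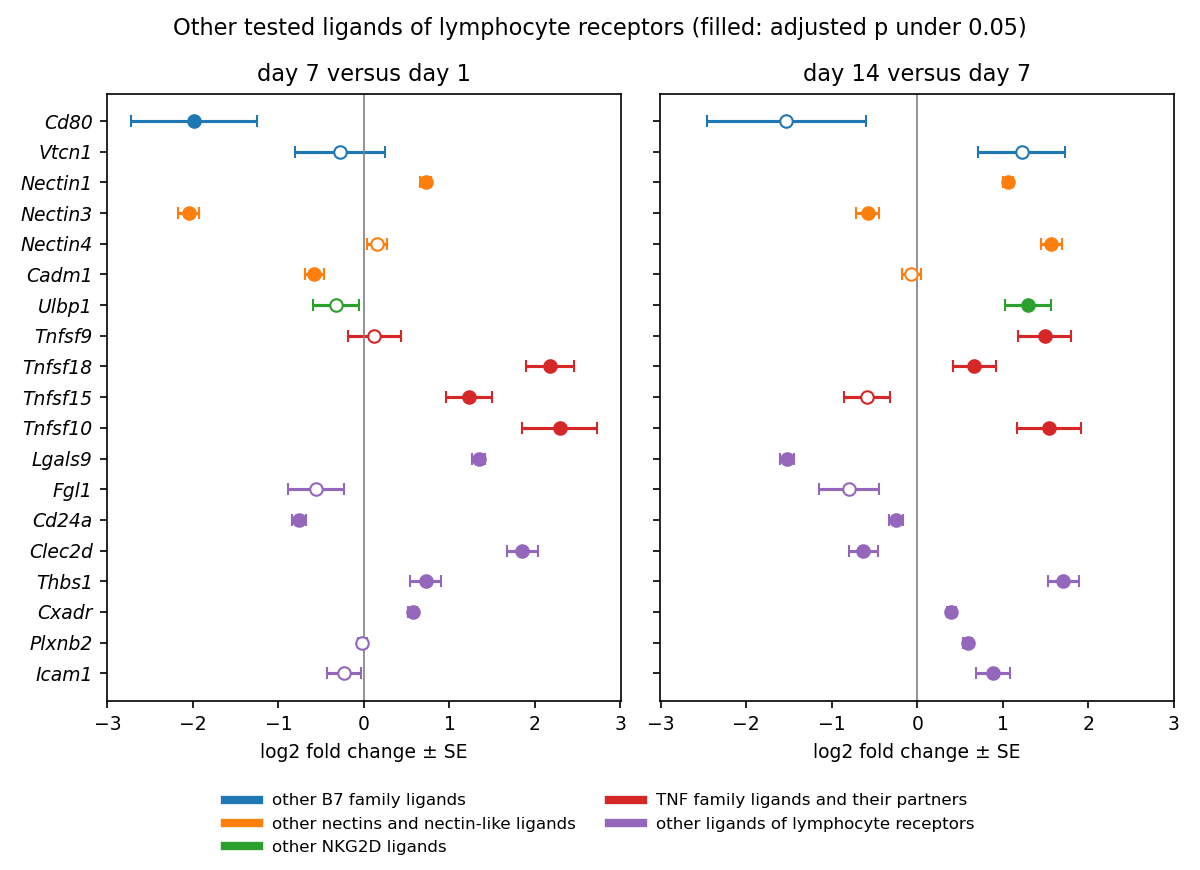
Log2 fold changes with standard errors of 19 other tested ligand genes in the first week (left, day 7 versus day 1) and the second (right, day 14 versus day 7), coloured by list. Filled points passed an adjusted p of 0.05 over all tested genes; Nectin1, Tnfsf18, Tnfsf10, Thbs1 and Cxadr are among those that rose in both weeks, and Nectin3 and Cd24a among those that fell in both.

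The receptors of these ligands were mostly near the limit of detection. The sort kept cells negative for the leukocyte marker CD45.2, so low counts of leukocyte receptors do not describe whole skin. Of 18 listed receptor genes, 17 were in the table, and 6 of them were tested. The receptor genes *Pdcd1*, *Tigit*, *Cd226* and *Cd200r1* had 0 counts in every library, *Klrk1*, which encodes NKG2D, had at most 12, and *Cd96* at most 12. *Sirpa* was well measured, at 65.6 ± 2.64 CPM at day 14, against 34.9 ± 1.32 CPM at day 1 (0.91 ± 0.07, edgeR adjusted p = 1.25e-07), so transcripts of CD47 and of its receptor were both present. *Lag3* was at 13.6 ± 2.01 CPM at day 14, against 5.52 ± 0.668 CPM at day 1. *Igsf11*, a binding partner of VISTA, fell to 0 counts in all day 14 libraries, against 64 to 111 counts at day 1.

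Genes that act on these ligand proteins changed in both directions, with 2 of 6 higher and 2 lower in each week. *Cmtm6*, whose protein keeps PD-L1 at the cell surface, was at 171 ± 12.3 CPM at day 14, against 82.2 ± 1.97 CPM at day 1 (1.06 ± 0.05, edgeR adjusted p = 2.83e-09). *Qpctl*, the enzyme that modifies CD47 for SIRPA binding, was at 23.4 ± 1.37 CPM at day 14, against 13.6 ± 0.75 CPM at day 1 (0.79 ± 0.08, edgeR adjusted p = 3.15e-06), and its relative *Qpct* fell to 0.144 ± 0.0906 CPM at day 14, against 2.34 ± 0.65 CPM at day 1.

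Markers of other cells moved between the days as well, and their part in the ligand values was not tested. Of 10 leukocyte markers 7 were tested. In the first week 1 was higher and 1 lower, and in the second week, when *Cd274*, *Nectin2* and *Pvr* rose, 6 were higher and 1 lower, with a median log2 fold change of 2.53. All 7 were higher at day 14 than at day 1. Their summed level was 84.1 to 90.3 CPM at day 1, 127 to 138 CPM at day 7 and 108 to 125 CPM at day 14, most of it *Arhgdib* (81.7, 129 and 100.1 CPM), which was the 1 marker that fell in the second week. *Cd68*, a lysosomal marker of macrophages, was at 8.73 ± 1.01 CPM at day 14, against 2.73 ± 0.115 CPM at day 7.

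Of 6 Langerhans cell markers 3 rose and 1 fell in the first week, and all 6 rose in the second, with a median log2 fold change of 2.32. Their sums were 21.7 to 23.9, 7.97 to 8.35 and 38.3 to 39.0 CPM at days 1, 7 and 14, and the low sum at day 7 came with *Mfge8*, which averaged 20.0, 2.69 and 5.19 CPM on these days. The defining gene *Cd207* had 0 counts at day 1, 9 to 13 at day 7 and 34 to 64 at day 14. In the day 14 libraries *Ptprc* had 6 to 9 counts and the T cell gene *Cd3e* 4 to 10, while *Cd74* had 701 to 761, *H2-Aa* 566 to 613 and *Cd68* 393 to 494. In the same libraries *Vsir* had 1304 to 1598 counts, *Cd274* 430 to 479 and *Nectin2* 9905 to 10993. These counts are not scaled for gene length, and which cells the ligand transcripts came from was not tested.

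T cell markers, 7 of 8 of them in the table and 4 tested, had sums of 12.3 to 13.7 CPM at day 1, 26.8 to 28.4 at day 7 and 39.0 to 42.0 at day 14, most of it *Thy1*. In each week 2 of the tested markers were called higher and 1 lower. The lower one was *Lck*, which averaged 4.32, 1.78 and 1.07 CPM at days 1, 7 and 14. Endothelial markers summed to between 0.58 and 1.70 CPM in all libraries, with *Pecam1* at 20 to 59 counts. Fibroblast markers summed to 122 to 225 CPM at day 1, 17.2 to 61.6 at day 7 and 16.8 to 37.2 at day 14. Of the 6 fibroblast markers, 2 were called lower and none higher in the first week, and none was called in the second. A called one was *Dcn*, which averaged 107, 11.5 and 6.79 CPM on these days (first-week log2 fold change -3.22 ± 0.32, edgeR adjusted p = 0.000197). The variable *Col1a1* ranged from 35 to 1102 counts without passing a test. All 6 melanocyte markers fell in each week, with sums of 358 to 387, 101 to 122 and 4.04 to 8.62 CPM at days 1, 7 and 14. Of 8 hair follicle markers 2 rose and 3 fell in the first week, when *Cd200* fell. *Lhx2* averaged 5.86 ± 1.89 CPM at day 7, against 47.8 ± 7.3 CPM at day 1. *Krt15* averaged 10735 ± 522 CPM at day 7, against 4638 ± 644 CPM at day 1. In the second week, when *Cd200* rose, 1 of these markers was called higher, 2 lower and 5 not at all. *Lhx2* was not called then (log2 fold change -0.68 ± 0.34, edgeR adjusted p = 0.117), and *Krt15* fell (-0.35 ± 0.09, edgeR adjusted p = 0.0054). Of 10 genes that respond to tissue handling, 7 rose and 3 fell in the second week, with sums of 16959 to 20811 CPM at day 1, 21111 to 25474 CPM at day 7 and 32959 to 36338 CPM at day 14.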

How the data were processed

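RNA from 9 libraries of sorted mouse skin cells, 3 each at postnatal days 1, 7 and 14, was analysed from the counts per gene that the authors deposited. The 18 columns of TPM and FPKM in the same table were not used here. The submitters' processing notes list HISAT2 2.1.0, StringTie 1.3.4d, Trimmomatic and bcl2fastq 2.20.0, and mm10. How reads were counted, and whether by strand, is not given in the sources used here. Headers gave each column its day, with D0 taken as day 1.

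Counts were filtered with filterByExpr (14507 of 24532 genes kept), scaled by TMM and fitted with edgeR 4.0.16 (R 4.3.3, robust quasi-likelihood), with day as the factor over all libraries. P-values were adjusted by Benjamini-Hochberg over all tested genes and called under 0.05. Total counts of 50670191 to 62970768 per library put 3 counts, the limit that a count of 0 allows, at 0.0444 to 0.0599 CPM, for counting error only. The procedure was run on counts simulated from the mean levels and spreads of these same data. Such a run checks the procedure only under its own model. Alternatives used DESeq2 1.42.0, limma 3.58.1, other scalings and filters, a minimum fold and leaving out each library.

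The ligands and all gene lists were chosen with earlier results of these data known. All ligands are named; of each list of other ligands, receptors and modulators, up to 3 tested genes with the largest absolute day 14 against day 1 log2 fold change and a mean of at least 1 CPM at some day are named. Of each marker list only counts, sums and defining genes are named. *Arhgdib*, *Cd68*, *Mfge8*, *Cd74*, *H2-Aa*, *Thy1*, *Lck*, *Dcn*, *Cxadr*, *Tnfsf15* and *Cadm1* are additions made after their values were seen. So are further genes named for counts at or near 0 or in a caption.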

Additional observations from a re-analysis of the deposited data

How the results depend on the processing

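Most ligand results kept their direction and side of the threshold under the alternatives: 152 of the day 14 against day 1 values, 139 of day 14 against day 7 and 148 of day 7 against day 1, with 7, 14 and 2 losing their call. The one reversal was *Cd276* for day 14 against day 1, at -0.06 with library totals alone (edgeR adjusted p = 0.514); that scaling moved the median of all genes to -0.319, against -0.046 with TMM. It called 3632 genes higher and 7762 lower, against 5150 and 5566 with TMM. For day 14 against day 7 it called 3563 higher and 6653 lower, against 4713 and 5095, and for day 7 against day 1 it called 2658 and 4789, against 3695 and 3476. Against a minimum fold of 1.5, by construction a stricter test, 1788 genes passed for day 7 against day 1, 3193 for day 14 against day 7 and 5054 for day 14 against day 1, and 4 ligands passed for day 14 against day 7, against 8. Leaving out a library gave 6 to 7, 6 to 8 and 6 to 7 ligands called for the 3 comparisons.

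Header numbers shared by days 1 and 14 gave no clear pairing of the libraries. Correlations of deviations were 0.0141, 0.0102 and 0.104 for equal numbers, and not every library correlated best with its own number. Correlations over 3 libraries per day cannot exclude a pairing by these header numbers. With these numbers as a replicate block, 10170 genes were called, against 10716, and 7 ligands in both fits; *Cd276* lost its call (edgeR adjusted p = 0.0719) and *Cd200* gained one (0.25, edgeR adjusted p = 0.0485). Low counts limit *Icosl*, *Cd274* at day 1 and *Vsir* at day 1.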

Other observations

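Among other ligands, *Lgals9*, which encodes galectin-9, a ligand of TIM-3, rose in the first week and fell in the second, as *Clec2d* did. Its mean level was 62.3 ± 4.40 CPM on day 1, then 157 ± 13.0 CPM on day 7, and 55.0 ± 4.12 CPM on day 14 (SD, n = 3). The log2 fold change was 1.34 ± 0.08 for day 7 against day 1 (edgeR adjusted p = 7.14e-08) and -1.52 ± 0.08 for day 14 against day 7 (edgeR adjusted p = 1.19e-08). It was named after its values were seen.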
